A study of Mus musculus with 6 samples.

Results

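The NF-kappaB subunits and their feedback inhibitors are described here by 10 genes, listed on the array as NFKB1, NFKB2, RELA, RELB, NFKBIA, NFKBIB, NFKBIE, TNFAIP3, TNIP1 and NOS2. Every probe whose gene name, ignoring case, is one of these was kept separately, which gave 17 of the 45281 probes on the array and 10 of its 30854 gene names. C2C12 cells, mouse muscle precursors that form multinucleated myotubes in culture, were transfected with 60 nM of scramble siRNA or of siRNA against DJ-1 (gene symbol Park7), switched to differentiation medium 48 h later and collected as myotubes after 4 days. Total RNA from 3 samples labelled Scramble and 3 labelled siDJ-1 was hybridised to 6 arrays of an Illumina mouse expression BeadChip. The question was which transcripts differ when DJ-1, a protein linked to the oxidative state of the cell, is depleted. The labels do not say whether the samples of a group came from separate cultures, so the p-values measure only the spread between these samples, which may be technical.

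NF-kappaB is a family of dimeric transcription factors that wait in the cytoplasm bound to IkappaB inhibitors. Signals from cytokine and Toll-like receptors activate the IkappaB kinase complex, the inhibitor is degraded, and the dimer enters the nucleus and binds kappaB sites. Several of the genes it then switches on, among them Nfkbia and Tnfaip3, encode proteins that shut the pathway off again, so their transcripts are widely used as a readout of its activity. In muscle, the pathway is known for its links to inflammation and wasting.

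Signal was measured as the mean intensity over the beads of a probe. The detection p compares that signal with the negative control beads of the same array, and a probe is called detected here when it is under 0.05. Across all probes, Scramble arrays 1, 2 and 3 had median deposited signals of 162.2, 167.4 and 153.5, and siDJ-1 arrays 1, 2 and 3 had 161, 166.9 and 152.3. Between 16985 and 18179 probes were detected on the Scramble arrays and between 18408 and 18857 on the siDJ-1 arrays, so every Scramble array had fewer detected probes than any siDJ-1 array, and the part of this in the results was not tested. The number of arrays limits the precision. Signals were background corrected and quantile normalized on the log2 scale, and 17890 probes, each detected on 3 or more of the 6 arrays, were compared with limma's moderated test, with p adjusted by Benjamini-Hochberg over all of them and a probe called when the adjusted p was under 0.05.

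Park7, the siRNA target, has 1 probe (ILMN_2728754). It read 13.59, 13.37 and 13.63 in Scramble and 12.48, 12.49 and 12.15 in siDJ-1 (normalized log2 signal), so the groups did not overlap. The fitted log2 fold change was -1.16 (SE 0.14, limma adjusted p = 0.00344), which leaves 44.7% of the Scramble signal. The muscle identity of the samples was visible in both groups: all 16 probes of 11 myotube marker genes, among them Ckm, Acta1 and Myog, were detected on all 6 arrays. Of these, 5 were called lower in siDJ-1 and 0 higher (31.2%, against 30.1% of all tested probes called and 13.6% called lower). The 5 were 3 probes of the perinatal myosin gene Myh8, with log2 fold changes of -1.11, -1.03 and -1.01, and the probes of Des and Tnnt3, at -0.56 and -0.52. The median over the 16 was -0.18, against 0.05 over all tested probes, and 13 were negative. The Actc1 probes, at 0.17 and 0.20 with no overlap, and the Myog probes, at 0.22 and -0.11, were not called. The call of 1 Myh8 probe (ILMN_2978038) ended without Scramble replicate 1 or 3 or siDJ-1 replicate 1 (adjusted p = 0.0544, 0.0682 and 0.0684, range over alternatives 0.000566 to 0.0684), with no filter and with the replicate block, that of Tnnt3 without siDJ-1 replicate 3 (0.0531), and that of Des after a shift to a common 75th percentile, where its log2 fold change was -0.325 (0.0554). In RNA from a whole culture, fewer cells of a type and less RNA per cell cannot be told apart. Among 12 probes of unfused or cycling myoblast markers, Pax7 was detected on no array, and 8 were tested, with a median log2 fold change of 0.22 against 0.05 over all tested probes. The Cd34 probe was called higher (log2 fold change 0.54) and 1 of the Ccnb1 probes lower (-0.57), which is 25% of the 8 against 30.1% of all tested probes. The 2 Ccnb1 probes were the only tested ones of this list with a negative log2 fold change. The Cd34 call held without Scramble replicate 1 or siDJ-1 replicate 3 and ended without any of the other arrays or with no filter (adjusted p up to 0.0656), and the Ccnb1 call ended without siDJ-1 replicate 1 or 3 (0.0585 or 0.0556). Of 20 probes of macrophage and leukocyte markers, 16 were detected on no array, including all probes of Ptprc, Itgam, Csf1r and Lyz2. Cd14 was detected on all 6 arrays (log2 fold change -0.59, limma adjusted p = 0.0626) and passed in 6 of the 13 alternatives (0.0271 to 0.184); without background correction it was -0.29. Cd68 was detected on 1 Scramble array and 3 siDJ-1 arrays (log2 fold change 0.52, limma adjusted p = 0.169), and without background correction it was 0.19. It passed only without Scramble replicate 2 (adjusted p = 0.0147), the only Scramble array that detected it. The remaining Scramble values were not detected, so that pass adds nothing and its size is not given. The part of these markers in the results was not tested. The deposited signal summed over the 20 probes was 3046.5, 3386 and 2897.2 in Scramble and 3163.5, 3253.2 and 2933.6 in siDJ-1, so the groups overlapped. As 16 of these probes were detected on no array and no background was subtracted, the sum cannot show whether these transcripts differed.

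Promoter stretches are printed below for Nfkbia, Tnfaip3, Tnip1, Nfkb2, Cxcl10 and Il6, and each of them holds a match to the kappaB consensus. Cxcl10 and Il6 were included because both transcripts fell in siDJ-1 myotubes (given with the targets) and a match was found in them. Other windows, among them that of Nfkbie, which also holds a match, are not printed. RefSeq promoter windows on GRCm38.p6, from 250 bases before to 50 bases after a start, were found for 7 of the 10 members. Nfkb1, Relb and Nos2 had no window and were not searched. The windows found were searched on both strands for the kappaB consensus, and no other motif was searched. Nfkb2 had 3 windows, Tnfaip3 2 and the other members 1. A match was present in 8.46% of all 32851 windows of that length and in 7 of the 10 member windows, which belong to 5 of the 7 members, Nfkb2, Nfkbia, Nfkbie, Tnfaip3 and Tnip1. Some of the Nfkb2 windows overlap, and a match in the stretch they share was counted in each of them. No match was found in the windows of Rela and Nfkbib and in 1 of the Tnfaip3 windows. Of the targets named below, 4 had a window and 2 of these, Cxcl10 and Il6, held a match, while C3 and Gadd45b had 0. A match is a description of the letters, not evidence of binding, and the contrast with all windows was not tested. The stretches below run 5′ to 3′ on the strand of the gene, from 175 bases before to 25 bases after the start, with matches in capitals. Where matches overlap the capitals run on.
Nfkbia, chr12:55492623-55492822 (minus strand): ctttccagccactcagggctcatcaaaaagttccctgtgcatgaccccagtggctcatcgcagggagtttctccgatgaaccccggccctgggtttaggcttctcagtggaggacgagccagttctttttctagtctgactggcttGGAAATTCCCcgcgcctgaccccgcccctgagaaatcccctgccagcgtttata
Tnfaip3, chr10:19015386-19015585 (minus strand): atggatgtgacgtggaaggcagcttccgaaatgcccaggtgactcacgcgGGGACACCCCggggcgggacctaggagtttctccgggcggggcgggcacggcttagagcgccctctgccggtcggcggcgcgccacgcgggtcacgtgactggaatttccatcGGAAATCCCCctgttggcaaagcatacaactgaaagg
Tnip1, chr11:54962916-54963115 (minus strand): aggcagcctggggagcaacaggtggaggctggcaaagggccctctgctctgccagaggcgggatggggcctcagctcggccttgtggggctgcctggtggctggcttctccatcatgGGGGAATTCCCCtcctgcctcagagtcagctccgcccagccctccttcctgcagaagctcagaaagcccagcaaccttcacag
Nfkb2, chr19:46304562-46304761 (plus strand): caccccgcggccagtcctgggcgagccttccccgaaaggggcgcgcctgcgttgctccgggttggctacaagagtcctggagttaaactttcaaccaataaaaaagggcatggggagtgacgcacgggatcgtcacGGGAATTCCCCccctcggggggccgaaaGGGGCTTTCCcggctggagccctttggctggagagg
Cxcl10, chr5:92348865-92349064 (minus strand): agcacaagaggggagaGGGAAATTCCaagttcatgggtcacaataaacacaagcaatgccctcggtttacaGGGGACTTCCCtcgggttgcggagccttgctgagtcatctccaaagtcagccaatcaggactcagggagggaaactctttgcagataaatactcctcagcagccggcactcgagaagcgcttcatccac
Il6, chr5:30012939-30013138 (plus strand): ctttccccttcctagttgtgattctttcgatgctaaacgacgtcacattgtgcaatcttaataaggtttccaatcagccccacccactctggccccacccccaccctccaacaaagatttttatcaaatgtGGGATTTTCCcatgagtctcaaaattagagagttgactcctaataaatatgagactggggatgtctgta

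Across the array 5387 of 17890 tested probes were called (30.1%), with 2957 higher in siDJ-1 (16.5%) and 2430 lower (13.6%). Of the 17 member probes, 13 were tested, at least 1 for each of the 10 genes. Of these, 1 Nos2 probe was called higher and 0 were called lower, and the other 12 tested probes were not called by limma, of which 1 was higher and 2 were lower at an unadjusted p under 0.05. Scramble and siDJ-1 values were fully separated for 3 of the 13 member probes, or 2 of the 12 without Nos2, against 48.5% of all tested probes, for which the groups likewise did not overlap. The median log2 fold change of the 13 was 0.00, with Nos2 at its fitted value or at its bound, against 0.05 over all tested probes. The number of called member probes depended on how the data were processed. It was 3 without background correction, with a variance trend or with array weights: Nos2 higher, and Nfkb1 (ILMN_2592476) and Nfkbia (ILMN_3001914) lower. Under a stricter filter, where Nos2 was not tested, it was 2, the same Nfkb1 and Nfkbia probes. Without Scramble replicate 1 it was 3, Nos2 and Relb higher and Nfkb2 lower. Without Scramble replicate 3 it was 2, Nos2 higher and Nfkbia (ILMN_1218605) lower. Without siDJ-1 replicate 1 or 3 the count across the array was 2564 or 2718, and the count of member probes stayed at 1. That 1 call was Nos2, detected on siDJ-1 arrays alone, so a count that stayed carries no information here.

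**Figure D1:**
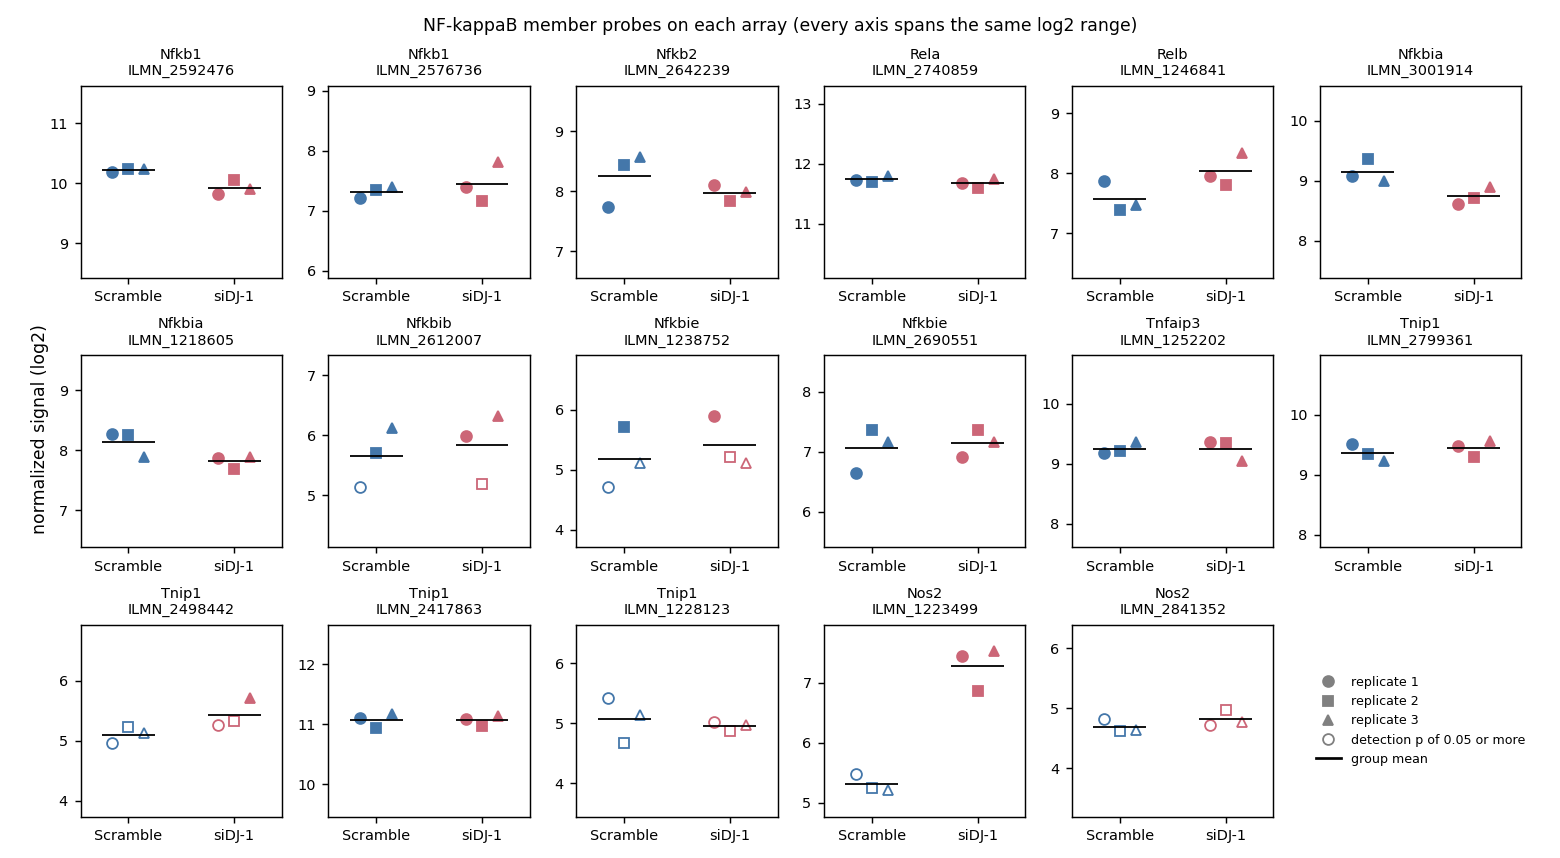
Normalized log2 signal of all 17 member probes on the 3 Scramble (blue) and 3 siDJ-1 (red) arrays, with the group mean as a line and undetected values as open symbols; all vertical axes span the same range. The Nos2 probe ILMN_1223499 is the one with the widest gap, from 5.21 to 5.48 in Scramble and from 6.87 to 7.53 in siDJ-1.

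The subunits come as precursors and as proteins with a transactivation domain. Nfkb1 and Nfkb2 encode precursors that are processed to the smaller DNA-binding subunits. The Nfkb1 probe ILMN_2592476 read 10.20, 10.23 and 10.24 in Scramble and 9.82, 10.06 and 9.90 in siDJ-1 (log2). All 3 siDJ-1 arrays lay below all 3 Scramble arrays, yet the log2 fold change of -0.29 (95% confidence interval -0.54 to -0.05) did not pass the adjusted test (limma adjusted p = 0.0701). It did pass in 4 of the 13 alternatives, where its adjusted p ranged from 0.0277 to 0.224 in all: without background correction, with the stricter filter, with a variance trend and with array weights. The other Nfkb1 probe (ILMN_2576736) had no match in RefSeq and gave 0.14 (-0.28 to 0.55), so the probes of this gene differed in sign. Nfkb2 read 7.75, 8.44 and 8.58 in Scramble and 8.11, 7.84 and 7.99 in siDJ-1. These values overlapped, with Scramble replicate 1 lowest of all, and the log2 fold change was -0.28 (-0.81 to 0.25). Without Scramble replicate 1 it was -0.53 (limma adjusted p = 0.0271, against a range of 0.0271 to 0.73 over all alternatives), and without Scramble replicate 2 or 3 it was -0.18 or -0.12.

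Among the members, Rela and Relb encode subunits that carry a transactivation domain, Rela in the canonical and Relb in the alternative branch. Rela read 11.72, 11.70 and 11.80 in Scramble and 11.68, 11.60 and 11.75 in siDJ-1. The groups overlapped, and the log2 fold change was -0.06 (95% confidence interval -0.29 to 0.16, limma adjusted p = 0.643); its sign turned to 0.06 when arrays were shifted to a common 75th percentile. Relb read 7.87, 7.39 and 7.47 in Scramble and 7.95, 7.80 and 8.33 in siDJ-1. Its log2 fold change was 0.45 (0.01 to 0.90, limma adjusted p = 0.111), with overlap only through Scramble replicate 1, and without that array it was 0.60 (adjusted p = 0.0496, range over alternatives 0.0496 to 0.286). Without siDJ-1 replicate 3 it was 0.30, and without background correction 0.28.

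The IkappaB inhibitors hold the dimers in the cytoplasm, and Nfkbia encodes the one that is rebuilt fastest after activation. Its probe ILMN_3001914 read 9.08, 9.36 and 8.99 in Scramble and 8.60, 8.71 and 8.90 in siDJ-1. All 3 siDJ-1 values were below all 3 Scramble values, and the log2 fold change was -0.40 (SE 0.14, 95% confidence interval -0.74 to -0.07, limma adjusted p = 0.0678). As with Nfkb1, it passed under the same 4 alternatives (adjusted p from 0.0278 to 0.202 over all alternatives). The second Nfkbia probe (ILMN_1218605) lay on the same side, at -0.32 (-0.65 to 0.01), and passed only without Scramble replicate 3 (-0.45, adjusted p = 0.0465, range 0.0465 to 0.291); without background correction it was -0.21. Nfkbib, which encodes a slower acting inhibitor, was detected on 2 arrays of each group, with a log2 fold change of 0.18 and a wide interval of -0.66 to 1.01. Nfkbie had 1 tested probe (ILMN_2690551) at 0.09 (-0.41 to 0.59) and 1 probe (ILMN_1238752) detected on 1 array of each group and not tested.

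Tnfaip3 encodes a ubiquitin-editing enzyme that ends signalling upstream of the kinase complex, and Tnip1 its partner protein. Tnfaip3 read 9.19, 9.21 and 9.36 in Scramble and 9.37, 9.35 and 9.05 in siDJ-1, so the groups overlapped. Its log2 fold change was 0.00 (95% confidence interval -0.29 to 0.30), which corresponds to between 0.815 and 1.23 times the Scramble level. The 2 tested Tnip1 probes were at 0.08 (-0.21 to 0.37) and -0.01 (-0.26 to 0.25). The other 2 Tnip1 probes were detected on 1 and 0 of the 6 arrays and were not tested.

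**Figure D2:**
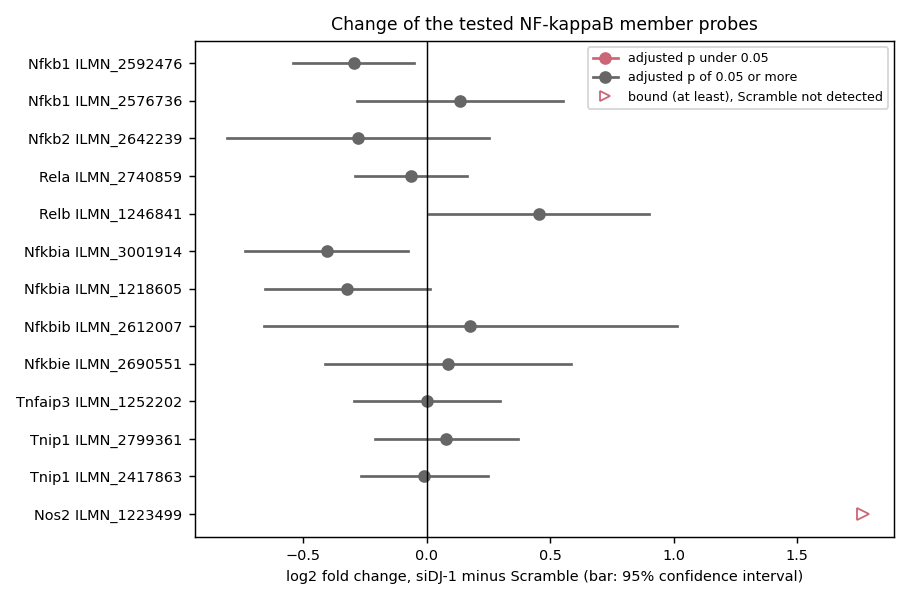
Log2 fold change, siDJ-1 minus Scramble, of the 13 tested member probes, 12 of them with 95% confidence intervals from limma and values between -0.40 and 0.45. The open triangle is Nos2 at its bound of at least 3.40-fold, because its Scramble values were not detected.

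Nos2 encodes the inducible nitric oxide synthase, a classical NF-kappaB target that makes nitric oxide in stimulated cells. Its probe ILMN_1223499 was detected on 0 of 3 Scramble arrays and on 3 of 3 siDJ-1 arrays. The deposited intensity was 182.1, 175.5 and 159.1 in Scramble, with detection p-values of 0.0716, 0.0983 and 0.111, and 306.7, 263.4 and 283.2 in siDJ-1. The Scramble signals were just under the lowest detected signal of their own arrays, which was 186.8, 187.4 and 167.2. On the siDJ-1 arrays this limit was lower, at 171.3, 176.8 and 161.6. The median standard error over beads of all probes was 11.3, 8.3 and 8.7 in Scramble and 7.2, 6.4 and 5.9 in siDJ-1. The Scramble replicate 1 signal lay above each siDJ-1 limit, so the lack of detection in Scramble does not show absence. The lowest siDJ-1 signal lay above the highest Scramble signal. The standard error over beads was at most 16.7 on any array. On the normalized log2 scale the values were 5.48, 5.25 and 5.21 against 7.45, 6.87 and 7.53. On this background-corrected scale Nos2 was at least 3.40-fold higher in siDJ-1, where the Scramble mean is replaced on each array by the lowest detected signal if that is higher. The size depends on the correction: without it the log2 fold change was 0.77. Measured means were 5.31 ± 0.15 (SD, n = 3) and 7.28 ± 0.36 (SD, n = 3), with a limma adjusted p of 0.00291. A probe that passes the detection filter only through the group where it is high had to differ, so its call adds nothing to that. The second Nos2 probe (ILMN_2841352) was detected on 0 of 6 arrays, with intensities from 129.6 to 163.2, so the rise rests on 1 probe of 2.

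**Figure D3:**
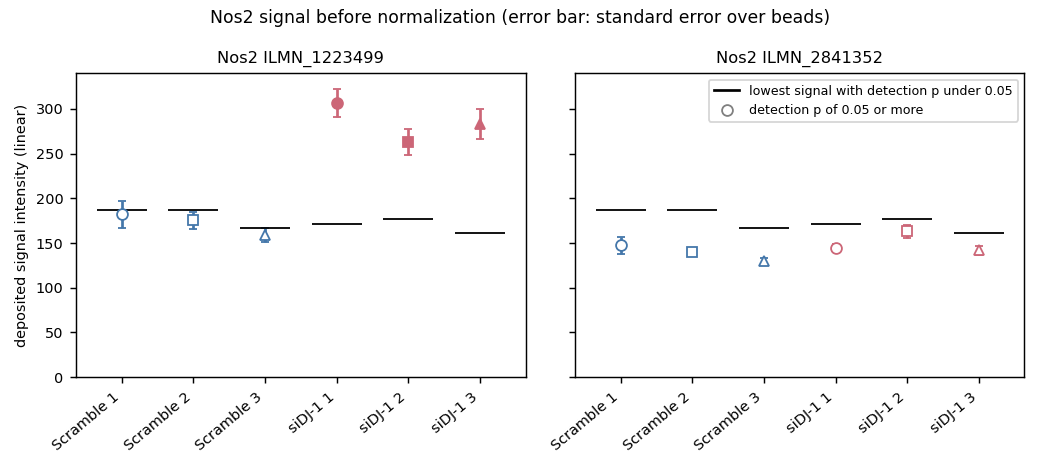
Deposited signal of both Nos2 probes on each array before normalization, with the standard error over beads; open symbols were not detected and black lines mark the lowest detected signal of that array. The probe ILMN_1223499 lies between 263.4 and 306.7 on the siDJ-1 arrays and between 159.1 and 182.1 on the Scramble arrays, and ILMN_2841352 is undetected throughout.

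The rest of the pathway moved in both directions. Of 137 probes for 64 genes of a list of 67 kinases, adaptors, receptors and regulators, 95 were tested. Of these, 34 were called (35.8%, against 30.1% of all tested probes). Called higher were 13 (13.7%, against 16.5% of all tested probes) and lower 21 (22.1%, against 13.6%). The median log2 fold change was -0.02. This list was chosen with earlier results of these data known, so its shares are a description and not a test. Higher were Map3k1, a kinase upstream of the stress kinases (log2 fold change 0.88, SE 0.14), Birc2, a ubiquitin ligase bound to TNF receptor complexes (0.87, SE 0.10), Rnf31, the catalytic part of the linear ubiquitin ligase (0.79, SE 0.16), Tnfrsf1a, the main TNF receptor (0.75, SE 0.16), and Map3k8, a kinase that links Nfkb1 to the MAP kinases (0.71, SE 0.12). Lower were Tnfrsf11b, the secreted decoy receptor osteoprotegerin, at 24.7% of Scramble (log2 fold change -2.02, SE 0.26), Usp18, a deubiquitinase induced by interferon (-1.55 and -1.33 on its probes), Tnfrsf12a, the receptor for the cytokine TWEAK in muscle (-1.38, SE 0.17), and Fadd, a death domain adaptor (-1.24, SE 0.19). Each of these probes had non-overlapping groups, as had 49 of the 95 tested pathway probes and 48.5% of all tested probes. They are the called ones with the largest changes in each direction, so their separation largely follows from how they were picked. Nfkbil1 and a Traf6 probe (ILMN_1259162), at 0.87 and 0.83 with no overlap either, were not called (limma adjusted p = 0.129 and 0.131). These 2 probes passed in 3 and 1 of the 12 alternatives that tested them, while the other tested Traf6 probes gave -0.02 and -0.55. The other tested probes of these genes gave 0.64 for Map3k1, 0.59 for Birc2 and -0.60 and -0.67 for Fadd, all called, but also -0.06 for Birc2 (ILMN_2741621) and 0.46 and 0.39 for Tnfrsf1a, which were not called (adjusted p = 0.812, 0.0651 and 0.157). This Birc2 probe passed in 0 of the 13 alternatives and these Tnfrsf1a probes in 3 and 1 (limma adjusted p down to 0.0368 and 0.0461). Over the alternatives, the Tnfrsf1a values ranged from 0.224 to 0.582 and from 0.192 to 0.57. The Traf6 probe at -0.55 (ILMN_2427560) passed in 4 of the 13. By role, the IkappaB kinases and kinases upstream of them counted 3 higher and 6 lower of 20 tested probes (15% and 30%). The adaptors and ubiquitin ligases counted 5 higher and 6 lower of 35 (14.3% and 17.1%). The receptors counted 1 higher and 3 lower of 11 (9.09% and 27.3%). Other negative regulators counted 4 higher and 6 lower of 26 (15.4% and 23.1%). Over all tested probes these shares were 16.5% and 13.6%. Other Rel and IkappaB-like proteins counted 0 called by limma of 3 tested, with 0 at an unadjusted p under 0.05 in either direction. Leaving out siDJ-1 replicate 1 or 3 cut the calls to 14 or 16, and ended those of Rnf31 (adjusted p = 0.0535 or 0.0581, range over alternatives 0.00205 to 0.0581) and Tnfrsf1a (0.061 or 0.055, range 0.00697 to 0.061). The second called probe of Map3k1 (ILMN_3006611) passed in 8 of 13 alternatives (adjusted p up to 0.0908), and that of Birc2 (ILMN_2990616) in 12 (up to 0.0536). Without background correction, the fold changes of the first probes given for Tnfrsf11b, Fadd, Tnfrsf1a, Map3k8 and Rnf31 were smaller, at -1.02, -0.52, 0.37, 0.39 and 0.52, as were those of Nfkbil1 and the Traf6 probe ILMN_1259162, at 0.44 and 0.32. With 1 array left out, Nfkbil1 ranged from 0.421 to 1.21 and this Traf6 probe from 0.427 to 1.05.

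Among widely described NF-kappaB targets, calls were mostly lower, and most probes were not called. Of 77 probes for 43 of the 45 listed genes, 40 were tested and 15 were called (37.5%, against 30.1% of all tested probes). Called higher were 2 (5%, against 16.5% of all tested probes) and lower 13 (32.5%, against 13.6%), and 25 were not called. The median log2 fold change was -0.27, against 0.05 over all tested probes. Chemokines and cytokines counted 0 higher and 7 lower of 10 tested probes (70% lower, against 13.6% of all tested probes). The target list was chosen with earlier results of these data known, so such contrasts are a description and not a test. All 10 chemokine and cytokine probes had negative log2 fold changes in the main setting, against 45.8% of all tested probes. The same 10 were negative in all 13 alternatives, which reuse the same arrays and so add no separate support. The 16 untested probes of this role were left out of these counts, also with no filter. Adhesion molecules counted 1 higher and 0 lower of 2 tested probes, and survival factors 1 higher (12.5%, against 16.5% of all tested probes) and 0 lower of 8. Acute phase and matrix genes counted 0 higher and 3 lower of 8 (37.5% lower). Transcription factor and growth genes counted 0 higher and 3 lower of 12 (25% lower, against 13.6% of all tested probes). Cxcl10, a chemokine that draws T cells, read 8.91, 9.45 and 9.29 in Scramble and 6.63, 6.67 and 6.31 in siDJ-1. It fell to 15.6% of Scramble, a log2 fold change of -2.68 (SE 0.17, limma adjusted p = 0.00224), with no overlap. A second Cxcl10 probe (ILMN_1214419) was detected on 0 of 6 arrays. Cfb, a complement factor, fell to 25.2% (log2 fold change -1.99, SE 0.28, limma adjusted p = 0.00495). Ccl7, a monocyte chemokine, changed by -0.88 (SE 0.24) on ILMN_2771176 and by -0.71 (SE 0.14) on ILMN_2835117, both called, Il6, the cytokine interleukin-6, by -0.86 (SE 0.18), and the complement gene C3 by -0.80 (SE 0.19). The called rises came from 1 of 2 tested probes each. The Vcam1 probe ILMN_1232768, which had no match in RefSeq, gave 0.73 (SE 0.13) for this adhesion molecule, and the matched probe ILMN_2778655 gave 0.39 and was not called (limma adjusted p = 0.0639). Gadd45b, a stress response gene, was called on ILMN_1246065 (0.51, SE 0.14) and not on ILMN_2900653 (0.21, limma adjusted p = 0.327). Tnf, Icam1, Cxcl2, Sele and Lcn2 were not tested: Tnf was detected on 1 of 6 arrays with 1 of its probes, and the other 4 genes on 0.

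The Cxcl10, Cfb and Il6 calls held in every alternative, as did that of the Vcam1 probe ILMN_1232768 wherever it was tested, whereas ILMN_2778655 passed in 4 of 13 (adjusted p from 0.00652 to 0.162). The number of called target probes fell to 8, 6, 4 and 6 without Scramble replicate 2, Scramble replicate 3, siDJ-1 replicate 1 and siDJ-1 replicate 3, and to 7 with no detection filter; without siDJ-1 replicate 1, 3 were called lower. Of the 10 chemokine and cytokine probes tested in the main setting, 3 were called without Scramble replicate 2 or 3. Without siDJ-1 replicate 1 or 3 the count was 2, and without siDJ-1 replicate 2 it was 4. With no filter 3 were called, and after the shift to a common 75th percentile 5. More were called without background correction or with a variance trend (9), and with array weights, the replicate block or without Scramble replicate 1 (8). The Ccl7 probe ILMN_2771176 passed in 7 of 13 alternatives (adjusted p up to 0.103), and with 1 array left out only without Scramble replicate 1, while ILMN_2835117 passed in 11 and lost its call without siDJ-1 replicate 1 or 3 (0.0512 or 0.0504). C3 passed in 10 (up to 0.0788) and lost its call without Scramble replicate 3, siDJ-1 replicate 1 or siDJ-1 replicate 2. Gadd45b passed in 6 on ILMN_1246065 (up to 0.12), with 1 array left out only without siDJ-1 replicate 2, and in 0 on its other tested probe. Without background correction the log2 fold change was -1.69 for Cxcl10, -0.42 for Il6, 0.31 for the called Vcam1 probe and 0.28 for the called Gadd45b probe.

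**Figure D4:**
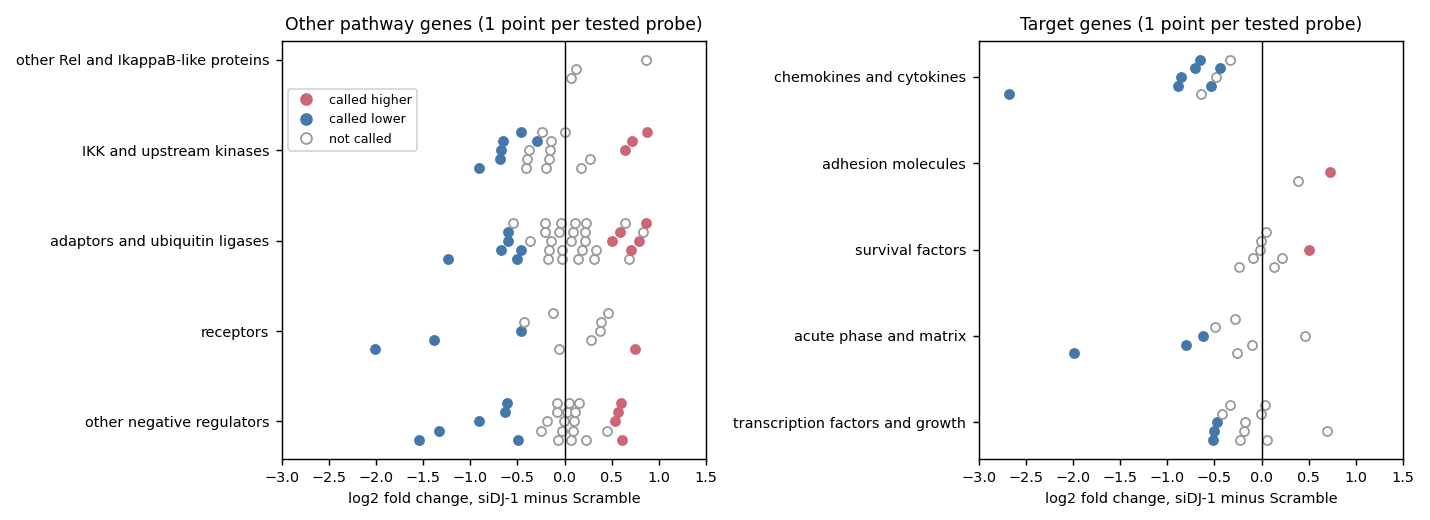
Log2 fold change, siDJ-1 minus Scramble, of every tested probe of the 2 lists, by role, with called probes filled. Chemokines and cytokines all lie below 0, down to -2.68 for Cxcl10, while the kinases and adaptors lie on both sides.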

How the data were processed

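The authors labelled total RNA of 3 Scramble and 3 siDJ-1 samples, hybridised it to 1 BeadChip and quantified the arrays in GenomeStudio (gene expression module 1.9.0 per the file headers). The deposited values are, per probe and array, the mean signal intensity, how many beads it rests on, its standard error over them, and a detection p-value against negative controls. The deposited intensity was neither normalized nor background subtracted. No genome build is given in the sources used here.

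In R 4.3.3 with limma 3.58.1, neqc (normexp, controls inferred from the detection p-values, offset 16, quantile normalization, log2) was followed by lmFit and eBayes on 17890 probes, each detected on 3 or more arrays. Fold changes are siDJ-1 minus Scramble, with 95% confidence intervals. A probe undetected in a whole group has a bound: the bright group's mean against the mean, per array, of the higher of the lowest detected signal and its own. The script was tested on simulated data.

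Probe names were checked through Entrez numbers and accessions in the RefSeq table of GRCm38.p6, which 32345 probes matched, 16 of the 17 member probes among them. Probes of a gene were kept apart. The members and lists were chosen with earlier results of these data known. Named probes are those of the members and Park7 and, in the pathway and target lists, of the called probes that all arrays of a group detected, the 5 that rose most and the 5 that fell most, fewer where fewer were called. Marker genes were named by detection, and the Cd34, Ccnb1, Myh8, Des and Tnnt3 changes and the undetected targets after their values were seen. The nitric oxide genes were chosen the same way, and some genes looked at with them are not reported here. The rule for genes most like a member needed a called member probe detected on all 6 arrays. There were 0, so none is given.

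Alternatives tried were leaving out the background correction, with a floor of 1 on the signal, a shift to a common 75th percentile, testing all probes, testing only those with a detection p below 0.01 on each of the 6 arrays (the stricter filter), a variance trend, array weights, a replicate block, and each array left out in turn.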

Additional observations from a re-analysis of the deposited data

How the results depend on the processing

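The Park7 fall passed the test in all 13 alternatives, with log2 fold changes from -1.24 to -1.0. The count of called probes across the array, 5387 in the main setting, was 3519 with no filter and ranged from 2564 to 5290 with 1 array left out. Called member probes, 1 in the main setting, numbered 3 without background correction, 2 under the stricter filter, 3 with a variance trend and 3 with array weights, and ranged from 1 to 3 with 1 array left out. Called pathway probes, 34 in the main setting, ranged from 14 to 32 with 1 array left out. Called target probes, 15 in the main setting, numbered 7 with no filter and ranged from 4 to 13 with 1 array left out. The median log2 fold change of the target probes was -0.27 in the main setting. It was -0.128 with no filter, -0.169 without background correction and -0.359 without siDJ-1 replicate 2. Leaving out an array leaves fewer samples, and no filter tests more probes; for the other changes the cause was not tested.

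Among the probes given singly and followed, signs turned only for some that were not called. The probes of Ddah1, Asl, Actc1 and Myog and the other called probes of the lists were not followed one by one. Rela was 0.0614 and Tnip1 (ILMN_2417863) 0.117 after the shift to a common 75th percentile, and with array weights Nfkbie was -0.0682 and this Tnip1 probe 0.00125. With 1 array left out, Nfkb1 (ILMN_2576736) ranged from -0.0426 to 0.283, Nfkbib from -0.0822 to 0.499, Nfkbie from -0.117 to 0.235, Tnfaip3 from -0.0566 to 0.104, Tnip1 (ILMN_2417863) from -0.0746 to 0.0421, Birc2 (ILMN_2741621) from -0.158 to 0.0987, Pts (ILMN_1217378) from -0.0473 to 0.205 and Traf6 (ILMN_2960750) from -0.125 to 0.0325. Nfkbib, with a signal close to background, was not tested under the stricter filter, nor were Nos2, Tnfrsf11b and Vcam1 (ILMN_1232768). Of the 17 pathway and target probes named for the largest changes, 12 kept their call and direction in every alternative that tested them.

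The replicate block gave 4350 called probes across the array, 1 member probe, 31 pathway probes, 14 target probes and a Park7 log2 fold change of -1.16. Among the named pathway and target probes and the members it changed the call of Gadd45b alone (adjusted p = 0.0543, range over alternatives 0.0182 to 0.12), and among the other genes given those of Myh8 (ILMN_2978038, 0.053), Cd14 (0.0332), Traf6 (ILMN_1259162, 0.0494) and Ddah2 (0.0615). The numbers were not taken as pairs: deviations from the group means correlated at 0.054, 0.047 and 0.02 between arrays of the same number, under the 0.1 required, although all 6 arrays correlated best with their own number, a hint from the data and not from the design.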

Other observations

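Genes of nitric oxide synthesis were chosen after the Nos2 values were seen, and are given as values with no test of the list. Of 22 probes for 11 genes, 14 were tested, and 3 were called higher and 2 lower in siDJ-1 (35.7%, against 30.1% of all tested probes). Gch1, which makes the first step of the synthase cofactor tetrahydrobiopterin, was higher on both probes (log2 fold change 0.89 and 0.59, SE 0.14 and 0.11, limma adjusted p = 0.00632 and 0.0109). Ddah2, which breaks down an inhibitor of the synthases, was higher (0.62, SE 0.16, adjusted p = 0.0318). Ddah1, of the same role, gave 0.03 and was not called (limma adjusted p = 0.85). Both Gch1 calls held in every alternative that tested them, but without background correction the first of these changes was 0.384, and the second 0.528. The other cofactor genes were not called: Spr was lower with no overlap (-0.55, adjusted p = 0.0563) and passed in 6 of the 13 alternatives (0.0107 to 0.144), and the Pts probes gave 0.07 and 0.19. The Ddah2 call ended with any array but Scramble replicate 1 left out, with no filter and with the replicate block (adjusted p up to 0.105).

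Lower were the arginine transporter gene Slc7a2 on its tested probe (-1.05, SE 0.26) and Ass1, which recycles citrulline to arginine (-0.50, SE 0.09). The Slc7a2 call ended without Scramble replicate 1 or 3 or siDJ-1 replicate 2 or 3 and with no filter (adjusted p up to 0.0868), and that of Ass1 without siDJ-1 replicate 1 (0.0519). Without background correction Slc7a2 was at -0.533. The tested probes of Asl, also listed under arginine supply, gave -0.33 and 0.13 and were not called (limma adjusted p = 0.307 and 0.543). The 3 tested probes of Nos3, the endothelial synthase, were not called (-0.25, -0.22 and 0.32).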
